A study of Mus musculus with 12 samples.

Results

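The records described here are the probes for miR-17, miR-18, miR-20, miR-93 and miR-106 and for miR-290 to miR-295 and miR-302 on a mouse microRNA (miRNA) panel. They were chosen by name alone, as the mouse miRNA records that carry one of these numbers directly after the prefix miR-. This gave 21 of the 566 mouse records, or 3.71%, and 23 of the 577 mouse miRNA names. The panel was used to profile Kupffer cells, the macrophages that reside in the liver sinusoids, sorted from BALB/c mice around partial hepatectomy, an operation that removes part of the liver. The labels give 3 pooled samples before surgery (day 0), 3 at day 1, 2 at day 3 and 4 at day 7, and state no genetic modification and no drug treatment. Each pool held cells of 5 animals per the labels, a number that the series text puts in doubt. The panel definition analysed here has 0 columns of sample values, so the levels of these miRNAs in Kupffer cells and the time groups were not analysed here. The identity of the cells could not be checked against markers for the same reason. What follows describes a fixed design, which has no replicates and no sampling error, and no test was made.

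An miRNA is cut from one arm of an RNA hairpin and guides a silencing complex to mRNAs, which it finds chiefly by pairing of its seed, here bases 2 to 8 from the 5′ end. The miR-17 to miR-92a cluster is induced by Myc. Together with its paralogs, miR-106a to miR-363 and miR-106b to miR-25, it is known to promote proliferation, in part by repressing the cell cycle inhibitor Cdkn1a. The miR-290 to miR-295 cluster is highly expressed in mouse embryonic stem cells, and the miR-302 to miR-367 cluster in the epiblast. Both are known to help these cells pass from G1 to S phase. The clusters of proliferation and those of pluripotency carry related seeds, and the comparison below describes where their targets on this panel coincide and where they part. In the liver, partial hepatectomy is the classical stimulus for cell division.

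Only numbers named in the rule were counted, so the cluster members miR-19, miR-92a, miR-25 and miR-363 are left out. Within that limit the proliferation clusters had 6 records, of which 4 carried the seed AAAGTGC. They are shown because every comparison below starts from them. The file writes targets as DNA, 5′ to 3′, and the capitals mark bases 2 to 8:
miR-106a+miR-17: cAAAGTGCtaacagtgcaggtag
miR-20a+miR-20b: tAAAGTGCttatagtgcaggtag
miR-106b: tAAAGTGCtgacagtgcagat
miR-93: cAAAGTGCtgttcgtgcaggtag
miR-18a: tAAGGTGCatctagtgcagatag
miR-18b: tAAGGTGCatctagtgctgttag
The remaining 2 records, miR-18a and miR-18b, come from the same clusters as miR-17 and miR-106a, and their common seed differs from AAAGTGC at 1 of 7 bases.

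Counted in the same way, the miR-290 to miR-295 cluster had 11 records and the miR-302 cluster, without miR-367, had 4. The targets that bear the related seed are shown with bases 2 to 8 in capitals, together with miR-293 and miR-302c, whose seeds depart from it:
miR-291a-3p: aAAGTGCTtccactttgtgtgc
miR-294: aAAGTGCTtcccttttgtgtgt
miR-295: aAAGTGCTactacttttgagtct
miR-290-3p: aAAGTGCCgcctagttttaagccc
miR-292-3p: aAAGTGCCgccaggttttgagtgt
miR-291b-3p: aAAGTGCAtccattttgtttgt
miR-293: aGTGCCGCagagtttgtagtgt
miR-302a: tAAGTGCTtccatgttttggtga
miR-302b: tAAGTGCTtccatgttttagtag
miR-302d: tAAGTGCTtccatgtttgagtgt
miR-302c: aAGTGCTTccatgtttcagtgg
miR-294 and miR-295, with miR-291a-3p, are counted among the embryonic stem cell miRNAs that drive the cell cycle, and in this set they had the same seed as miR-302a, miR-302b and miR-302d. miR-293 and miR-302c begin further along the common stretch than their neighbours, which is described with the hairpins below.

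By seed, the proliferation and pluripotency records chosen by the rule were separate. Cluster members with other numbers, such as miR-92a, miR-25, miR-363 and miR-367, were not compared, so this does not extend to the whole clusters. Among the 21 targets 9 seeds were found, 6 of them in at least 2 members, and 0 seeds were common to both classes. The number of seeds in common was also 0 when bases 2 to 7 or bases 3 to 8 were compared. In all, 18 of the 21 records shared their seed with another member, against 171 of the 566 mouse records, or 30.2%, that shared a seed with any other. Names in this group carry letters for related sequences, so a high share follows in part from the choice by name. The seed AAAGTGC had 4 members and AAGTGCT had 6. The seed AAGGTGC of the miR-18 records, the seed AAGTGCC of miR-290-3p and miR-292-3p and the 2 seeds of the 5′ arms each had 2. miR-291b-3p with AAGTGCA, miR-302c with AGTGCTT and miR-293 with GTGCCGC each had a seed that no other mouse record held. Of all seeds in the set, AAGTGCC alone was also found outside it, in miR-467a.

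Read with a shift of 1 base, the classes joined. The 6 bases found most often within bases 2 to 8 of the members were AAGTGC, called the core here. It was searched in the sense direction only, since the targets are single-stranded RNAs. The core started at base 3 in the 4 miR-17 type records, at base 2 in 9 pluripotency records and at base 1 in miR-302c. It was not found in the other 7 members. Bases 3 to 8 of each miR-17 type target thus equalled bases 2 to 7 of the 9 pluripotency targets. This made 36 of the 90 pairs across the classes, or 40%, while such a shift linked 0.158% of all 159895 pairs of mouse records. The pairs share records, so these shares are a description. A further 6 shifted pairs lay within the pluripotency class, and each of them included miR-302c. Among the 15 pairs of proliferation records there were 0.

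The base on either side of the core set the subgroups apart. The base before it was A in 4 of 4 miR-17 type targets and in 6 of 6 of the miR-290 to miR-295 cluster, but T in miR-302a, miR-302b and miR-302d. The 7 bases AAAGTGC, the seed of miR-17, were therefore bases 1 to 7 of the 6 miR-290 to miR-295 targets. The base after the core was T in all 4 miR-17 type and all 4 miR-302 targets. In the miR-290 to miR-295 cluster it was T in 3 targets, C in miR-290-3p and miR-292-3p, and A in miR-291b-3p. With 7 bases required, from bases 3 to 9 of one to bases 2 to 8 of the other, 24 pairs across the classes were left, those of the 4 miR-17 type records with the 6 records of seed AAGTGCT. The longest run of bases common to a proliferation and a pluripotency target was 9. It was AAAGTGCTT for miR-20a+miR-20b with miR-291a-3p and with miR-294, and AAAGTGCTA for miR-106a+miR-17 with miR-295. Runs of at least 7 bases were found in 46 of the 90 pairs. Some of these runs, CAAAGTG and GTGCATC, did not hold the whole core. The share of such runs over all pairs of mouse records was not computed, so the count is a description alone.

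The related seeds lay on opposite arms of their hairpins. Of the 21 targets, 19 were found in a hairpin of the RefSeq miRNA table (assembly GRCm38.p6), and the arm was read from the position of the target in it. All 6 proliferation records lay on the 5′ arm. Of the 10 core-bearing pluripotency records, 9 lay on the 3′ arm, and the other, miR-291a-3p, lay downstream of miR-291a-5p on the same strand by RefSeq position, as its name has it. The names themselves carry an arm in 8 of the 21 records. The 5′ arms of the pluripotency clusters had 4 records, miR-290-5p, miR-291a-5p, miR-291b-5p and miR-292-5p, and none of these 4 held the core. miR-290-5p and miR-292-5p shared the seed CTCAAAC, and miR-291a-5p and miR-291b-5p shared ATCAAAG.

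Both arms of 4 hairpins were thus on the panel, and for miR-290 the longest unbroken complementary run covered the core itself. The capitals mark the longest run that is the reverse complement of a run in the other arm:
miR-290-5p: actcaaactatgggGGCACTTT
miR-290-3p: AAAGTGCCgcctagttttaagccc
In miR-290 that run was 8 bases long, from bases 15 to 22 of the 5′ arm and bases 1 to 8 of the 3′ arm, and so included the seed of miR-290-3p. The longest run was 9 bases in miR-291a, 7 in miR-292 and 4 in miR-291b, and in miR-291a and miR-292 it lay beyond the seed of the 3′ arm, from base 9 and base 16 onward. In miR-291b more than 1 run had that length. Only unbroken runs of exact complements were counted, so a mismatch or a pair of G with U ended a run. Pairing over the core with such a break was therefore not looked for in the other hairpins, and the run lengths do not measure it.

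The hairpins also place the start of miR-293 and miR-302c, 2 records of the 3′ arm whose seeds no other mouse record held. miR-291b-3p also had a seed of its own, but with its core at base 2. Each line gives the 3 hairpin bases before the target and the first 12 bases of the target, with the core in capitals:
miR-293: agAAGTGCcgcagag
miR-302c: agcAAGTGCttccat
miR-302b: gagtAAGTGCttcca
miR-290-3p: taaaAAGTGCcgcct
The core was present in the hairpin of miR-293, where it began 1 base before the target, and the target opened with its last 5 bases. The miR-302c target began with the core, and those of miR-302a, miR-302b and miR-302d had a T before it. Compared from the 5′ end, miR-302c differed from miR-302b at 17 of 22 bases, from miR-302d at 16 and from miR-302a at 15. With a shift of 1 base these differences came to 2, 2 and 3. By position from the 5′ end miR-302c therefore stood apart from its cluster, and with the shift it did not.

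Beyond the core, the classes had little in common. Targets were lined up on the core and mismatches counted over the bases after it, per 100 bases compared. Within the miR-17 type the median was 21.5 over 6 pairs (range 13.3 to 30.8), and within miR-302 it was 18.8 over 6 pairs (12.5 to 18.8). Lined up on the 5′ end instead, the miR-302 median was 42.1 (20 to 78.6), since miR-302c begins 1 base later than the others. The miR-290 to miR-295 cluster varied more, with a median of 46.7 over 15 pairs (20 to 68.8). Between the pluripotency clusters the median was 50 over 24 pairs (31.2 to 56.2). Between proliferation and pluripotency it was 73.3 over 40 pairs (60 to 100), and the lowest of these 40 values was above the highest within the miR-17 type, within miR-302 and between the pluripotency clusters. The separation from all of these at once held only on the core. Lined up on the 5′ end, from base 9 onward, the lowest value across the classes was 53.3. This was above the highest within the miR-17 type, 30.8, but below the highest between the pluripotency clusters, 71.4, and within miR-302, 78.6. By edit distance with gaps the lowest value across the classes was 43.8. This was above the highest within the miR-17 type, 40, and within miR-302, 18.8, but below the highest between the pluripotency clusters, 52.9. The highest value within miR-290 to miR-295, 68.8 for miR-292-3p and miR-295, fell inside the range across the classes. For comparison, bases 9 onward of all pairs of mouse records, lined up on the 5′ end, had a median of 76.9. The measure lined up on the 5′ end gave 70.3 for the 40 pairs across the classes. On the core, the miR-17 type had medians of 71.3 to miR-290 to miR-295 and 73.3 to miR-302. Their order turned on the 5′ end, with 78.6 and 61.5, and by edit distance, with 64.7 and 50.

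The closest pair across the classes after the core was miR-106a+miR-17 with miR-291a-3p, which differed at 9 of 15 bases. The farthest was miR-20a+miR-20b with miR-290-3p, which differed at all 15. Over whole targets compared from the 5′ end, pairs across the classes had 12 to 19 mismatches with a median of 16, against 2 to 8 with a median of 5 among the proliferation records. With the better of no shift and a shift of 1 base, pairs across the classes had 8 to 17 with a median of 13. The pluripotency records, which include both arms, had 2 to 20 with a median of 15 without a shift. Without a shift, 19 of the 21 members had their nearest mouse records within their own class. The exceptions were miR-293, at 9 mismatches from miR-546, and miR-302c, at 9 from miR-188-5p. With the better of no shift and a shift of 1 base the number was also 19, but miR-302c was then within its class. The exceptions were then miR-293 and miR-292-5p, which was as near to miR-720 as to miR-290-5p, at 7 mismatches.

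After the core, the miR-17 type and miR-302 kept more positions the same than the miR-290 to miR-295 cluster did. Over the first 13 bases after the core, the 4 miR-17 type targets had the same base at 8 positions, and the first 16 bases after the core were the same at 12 positions in the 4 miR-302 targets. In the 6 miR-290 to miR-295 targets only 3 of 15 positions were the same, and these 3 were also the same in the 4 miR-302 targets. Over the 13 bases compared, no position after the core was the same in all 14 core-bearing targets. The 6 bases GTGCAG, searched from base 10 onward, were found in 5 of the 6 proliferation records, the exception being miR-18b, and in 0 of the 15 pluripotency records. In all they occurred there in 6 mouse records, or 1.06%, the other being miR-590-5p. In miR-302 the runs CATGTT and ATGTTT, which overlap, were found from base 10 onward in 4 of 4 records. With these 4 included, they were in 10 mouse records, or 1.77%, and in 8, or 1.41%. GTGCAG and these runs are listed because most records of their own group share them. The counts within the groups therefore follow from that choice. The miR-17 type targets also repeated part of their own core. The 5 bases AGTGC occurred at base 4 and again at base 13 in miR-106a+miR-17, miR-106b and miR-20a+miR-20b, which were the only 3 of the 566 mouse targets to hold them more than once.

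miR-18a and miR-18b, which lack the core, nevertheless resembled the miR-17 type further on. Their bases from base 9 onward were set against the bases after the core of each core-bearing target. Those begin at base 9 in the miR-17 type and earlier in the others. So lined up, miR-18a had a median of 32.1 mismatches per 100 bases to the 4 miR-17 type targets. It had 70 to both the 6 miR-290 to miR-295 and the 4 miR-302 targets. For miR-18b the medians were 40, 70 and 66.7. Among the core-bearing targets, the closest to each was miR-20a+miR-20b, at 3 of 15 bases for miR-18a and 4 of 15 for miR-18b. miR-293, lined up on AGTGC, was closest to miR-292-3p of its own cluster, with 5 mismatches in 17 bases. Its medians were 63.3 mismatches per 100 bases to the miR-290 to miR-295 targets, 62.5 to miR-302 and 90 to the miR-17 type.

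No 2 members were near-identical at a single mismatch from the 5′ end, but 2 pairs differed by 2 bases. miR-18a and miR-18b differed by A18T and A20T, where positions count from 1 at the 5′ end and each token opens with the base of the target named first. miR-291a-5p and miR-291b-5p differed by C1G and T22C. At 3 differences, miR-291a-3p and miR-294 differed by A12C, C13T and C22T, and miR-291b-3p and miR-294 by A8T, A12C and T19G. The last of these pairs differed within the seed. miR-302a and miR-302b differed by G19A, G22A and A23G. In the miR-17 type, miR-106a+miR-17 and miR-106b differed by C1T, A10G and G20A, and miR-106a+miR-17 and miR-93 by A10G, A11T, C12T and A13C. In these pairs of the miR-17 type the differences lay at base 1, at bases 10 to 13 and at base 20.

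Both joint records belong to the miR-17 type, and each joins miRNAs of different clusters. The mature sequences of the 4 miRNAs in RefSeq are shown with the bases that differ from the target of their record in capitals:
miR-106a: caaagtgctaacagtgcaggtag
miR-17: caaagtgctTacagtgcaggtag
miR-20a: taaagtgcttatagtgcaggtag
miR-20b: CaaagtgctCatagtgcaggtag
The joint target of miR-17 and miR-106a had the sequence of miR-106a, and miR-17 differed from it by A10T. The joint target of miR-20a and miR-20b had the sequence of miR-20a, and miR-20b differed from it by T1C and T10C. miR-20b was as far from the other joint target, that of miR-17 and miR-106a, from which it differed by A10C and C12T. miR-17 in turn differed from the target of miR-20a and miR-20b at 2 bases, T1C and T12C. By sequence, miR-20b was therefore at 2 mismatches from both targets, and its seed was that of all 4 records of the type. How strongly each miRNA is counted by each record was not measured.

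In the RefSeq assembly GRCm38.p6, miR-17 and miR-20a lie on chromosome 14 and miR-106a and miR-20b on chromosome X. Each joint record thus names miRNAs of 2 chromosomes. The mature miR-17, miR-18a and miR-20a were placed from 115043684 to 115044205 on the plus strand of chromosome 14. In the annotation used, no gene spanned this stretch, and the host gene Mir17hg was listed within 1000 bases of it. miR-20b, miR-18b and miR-106a lay from 52742159 to 52742563 on the minus strand of chromosome X. miR-93 and miR-106b lay from 138165574 to 138165807 on the minus strand of chromosome 5, within the span of Mcm7, which encodes a subunit of the replicative helicase. The 11 records of miR-290 to miR-295 were placed from 3218639 to 3220837 on the plus strand of chromosome 7, a span of 2199 bases. The 4 of miR-302 lay from 127545275 to 127545687 on the plus strand of chromosome 3, within the spans of Larp7, a gene for an RNA-binding protein, and of the annotated gene Gm51018. Whether these positions are exonic or intronic was not read, since the gene table gives spans alone.

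Apart from miR-290, miR-291a, miR-291b and miR-292, the members held the arm with the related seed and not the other. The hairpins of these miRNAs had 36 mature forms in the RefSeq table, of which 19 equalled a target. Of the 17 without an equal target, 2 were miR-17-5p and miR-20b-5p, named in the joint records. Another 8 were the 3′ arms of the proliferation clusters, and 7 were 5′ arms, those of miR-293, miR-294, miR-295 and the 4 miR-302 hairpins.

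Outside the set, the core began within the first 4 bases of 5 mouse records, miR-105 and miR-467a to miR-467d. With the 14 members this made 19 of 566 mouse records, or 3.36%. miR-467a is shown with its core in capitals, beside miR-302a, because it shares a seed with 2 members and resembles the miR-302 targets after the core:
miR-467a: tAAGTGCctgcatgtatatgcg
miR-302a: tAAGTGCttccatgttttggtga
miR-290-3p: aAAGTGCcgcctagttttaagccc
By seed, miR-467a was grouped with miR-290-3p and miR-292-3p. After the core, the 4 miR-467 targets had a median of 40 mismatches per 100 bases to the miR-302 targets (range 33.3 to 53.3 over 16 pairs), 69.2 to the miR-290 to miR-295 targets (53.8 to 80 over 24 pairs) and 84.6 to the miR-17 type (80 to 100 over 16 pairs). The range against miR-302 overlapped neither that against the miR-17 type nor, narrowly, that against miR-290 to miR-295 (53.3 against 53.8). miR-467b begins 1 base earlier than miR-467a, which moves its core to base 3, the position it has in miR-17. Its shifted partners were accordingly 9 pluripotency records, and those of miR-467a, miR-467c and miR-467d were the 4 miR-17 type records. miR-105, whose core also starts at base 3, had the same 9 partners as miR-467b. A shift of 1 base also linked miR-130a, miR-130b, miR-301a and miR-301b to miR-291b-3p, miR-1186 to the 6 records of seed AAGTGCT, and miR-1960 to miR-302c.

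Target length ranged from 21 to 24 bases with a median of 23. The median GC content was 45.3% in the miR-17 type, 43.2% in the core-bearing miR-290 to miR-295 targets and 39.1% in miR-302, against 47.8% over all mouse records. The lowest in the set was 31.8%, in miR-291b-3p, and the highest 59.1%, in miR-291b-5p of the same hairpin.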

How the data were processed

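Kupffer cell miRNA from 12 pooled samples was profiled with the nCounter mouse panel version named in the labels, from 100 ng of total RNA per the labels' protocols. The deposited file analysed is the panel's reporter library file, with 8 columns and 652 records per the file headers. Its columns hold text (class, target sequence, barcode, name and identifiers), and how the targets were chosen is not given in the sources used here. Members were taken by name, and joint names were split at the plus sign. Seeds were compared at bases 2 to 8, and targets base by base from the 5′ end or from the core, without gaps, over the shorter of each pair. Arms, mature sequences and positions came from RefSeq tables of GRCm38.p6 by exact match of the target to a mature form (19 of 21) or to a hairpin (miR-292-3p and miR-302a). The library file names no build. The searches were tested on simulated sequences with planted pairs. Python 3.11.15 was used. The members, clusters and comparisons were chosen with earlier results of these data known. Depth per sample is unknown, and no expression test was run.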

Additional observations from a re-analysis of the deposited data

How the results depend on the processing

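No paired analysis was possible because the file used holds the panel design alone. Of 12 alternatives for the counts, 10 stayed within 1.5 times the reported value. The others were the near-identical pairs, which were 0 at a single mismatch and 2 with up to 2 mismatches, and the records on the 3′ arm, which were 10 by hairpin and 4 by name, since most names carry no arm. Records sharing a seed numbered 18, and 19 with bases 2 to 7. The median of 73.3 mismatches per 100 bases after the core, proliferation against pluripotency, became 70.3 when lined up on the 5′ end and 57.5 as an edit distance with gaps. With miR-290 to miR-295 alone it was 71.3 and with miR-302 alone 73.3, a split chosen after seeing the data. Within the miR-17 type the edit distance was 26.7 per 100 bases, against 21.5 mismatches without gaps. How far similar targets cross-hybridise was not measured.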

Other observations

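The reporter barcode, a row of 6 colours that the instrument reads, was compared position by position between members. Of the 210 pairs, 4 differed at a single colour. The share over all pairs of the panel was not computed, so this is not read as a trait of the members. The 4 pairs were miR-106b and miR-291b-5p, miR-20a+miR-20b and miR-292-3p, miR-292-3p and miR-302b, and miR-294 and miR-302d. The first 2 of these pairs join a proliferation with a pluripotency record. Misreading of barcodes was not tested.

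The 5′ arms miR-291a-5p and miR-291b-5p held CAAAGTG, the first 7 bases of the miR-93 target and of the miR-106a+miR-17 target, but from base 4 onward. This was noticed after the sequences had been compared.

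The first base of the target was A in all 6 core-bearing miR-290 to miR-295 records and T in 3 of 4 miR-302 records. Over all mouse records, A came first in 28.8% and T in 45.1%.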
